A study of Homo sapiens with 72 samples.

Results

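The chaperone set described here holds 47 genes, all of those named for it, out of 61541 genes listed in each of 11 tables of RNA-seq comparisons. It was chosen by gene symbol and covers cytosolic and mitochondrial chaperones and co-chaperones other than cytosolic HSP70 and HSP110. By role it holds 14 HSP40 (J-domain) genes, 6 nucleotide exchange factors, 3 small heat shock proteins, 2 HSP90 genes, 4 mitochondrial chaperones, 8 chaperonin subunits, 8 HSP90 co-chaperones and 2 heat shock factors. The series studies RNA contacts of G3BP1, a scaffold protein of stress granules, and 24 of its 72 libraries, in 11 groups, entered the tables used here. The other 48 libraries are not analysed here.

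The first experiment compared 3 groups of U2OS cells, an osteosarcoma line, with 2 libraries each and no arsenite. These were wild type, G3BP1/2 knockout, and knockout cells transfected with a G3BP1 transgene by Lipofectamine and taken 24 h later. The second experiment held 6 groups of the G3BP1/2 knockout, again with 2 libraries each: untransfected, rescued with WT G3BP1, or rescued with the NTF2 deletion mutant of G3BP1, each without and with 200 uM sodium arsenite for 2 h. All 6 groups carry the knockout, the rescues were transient and also 24 h old, and no mock-transfected group was compared, so transfection and transgene cannot be told apart against untransfected knockout. RIP-seq compared RNA from a FLAG-G3BP1 immunoprecipitate with its input, 3 libraries each, in FlpIn 293 Trex embryonic kidney cells induced with 1 ug/mL tetracycline for 24 h. Whether the knockout is 1 clone, and whether libraries of a group came from separate cultures, is not given in the labels, so the p-values measure only the spread between these libraries, which may be technical.

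Reads per library were worked out from the deposited tables for the 18 U2OS libraries, as whole numbers for all 61541 genes. Reads in genes ran from 38590157 to 52470072 per library in the first experiment and from 10793184 up to 27755473 in the second. The treated WT rescue libraries were the deepest of the second, at 27755473 and 19074162, and the others held at most 16164909. Values below called normalised reads are these reads divided by a library size factor, and they compare libraries of 1 gene, not genes with each other. The tables do not number the libraries, so the pair of a group is called a and b. G3BP1 RNA stood at 18087 and 19023 normalised reads in wild type and at 12603 and 12628 in knockout in the first experiment, so the transcript was lower but still present in the knockout. In the second experiment G3BP1 stood at 3815 and 3884 in untreated knockout, at 591137 and 621709 in untreated WT rescue and at 804718 and 839200 in untreated NTF2-deletion rescue. G3BP2 stood at 8091 and 8622 in wild type and at 6399 and 6610 in knockout in the first experiment. The U2OS markers COL1A1 and VIM had base means of 87411 and 72390 in the first experiment, and the muscle marker MYOD1 1.00. COL1A2 was low there, at 17.5, and the epithelial marker EPCAM stood at 453. In the RIP-seq libraries the kidney marker PAX2 stood at a base mean of 45.8, and ALB and PTPRC at 0.

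HSP40 proteins bring unfolded clients to HSP70 and start its ATP cycle, and BAG proteins and HSPBP1 then release the nucleotide. Small heat shock proteins hold clients without ATP, HSP90 and its co-chaperones mature kinases and receptors, the chaperonin TRiC folds actin and tubulin, and HSPD1 with HSPE1 folds proteins inside mitochondria. Arsenite reacts with protein thiols, activates the heat shock factor HSF1 and induces stress granules, which G3BP1 nucleates through its NTF2-like domain. HSF1 binds inverted repeats of GAA, called heat shock elements, in promoters.

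Promoter windows of RefSeq genes (GRCh38.p14, 250 bases before to 50 after a start site) were matched to 40 of the 47 members by symbol, in 58 windows. BAG4, CRYAB, CCT6A, FKBP4, ST13, STUB1 and HSF1 were not matched. A three-unit element, GAANNTTCNNGAA on either strand, was in the windows of 6 of the 40 members (15%), against 166 of 27305 genes in all (0.608%). The shorter two-unit element, GAANNTTC, which the longer one contains, was in the windows of 13 members (32.5%), against 2241 genes (8.21%). The stretches that carry the three-unit element are shown because the element is the one HSF1 is known to bind, with the element in capitals and 30 bases on each side where the window allows. They lie in DNAJA1 (chr9:33025246-33025318, plus strand), CHORDC1 (chr11:90223057-90223139, minus strand), HSP90AA1 (chr14:102087090-102087162, minus strand), HSP90AB1 (chr6:44247748-44247873, plus strand), HSPD1 (chr2:197500038-197500090, minus strand) and DNAJB6 (chr7:157336843-157336915, plus strand). The capitals of DNAJB1 (chr19:14518407-14518504, minus strand) and DNAJA4 (chr15:78264441-78264547, plus strand) mark two-unit elements, shown since both genes are described first below. Each runs 5′ to 3′ on the strand of its gene.
DNAJA1: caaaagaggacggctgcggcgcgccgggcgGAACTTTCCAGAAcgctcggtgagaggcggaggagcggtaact
CHORDC1: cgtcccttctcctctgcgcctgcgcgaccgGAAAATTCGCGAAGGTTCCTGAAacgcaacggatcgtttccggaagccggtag
HSP90AA1: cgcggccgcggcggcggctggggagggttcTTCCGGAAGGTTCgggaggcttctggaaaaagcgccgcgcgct
HSP90AB1: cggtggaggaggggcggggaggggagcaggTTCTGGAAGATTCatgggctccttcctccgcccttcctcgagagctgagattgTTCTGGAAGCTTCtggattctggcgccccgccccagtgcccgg
HSPD1: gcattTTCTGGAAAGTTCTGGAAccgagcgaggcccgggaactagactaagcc
DNAJB6: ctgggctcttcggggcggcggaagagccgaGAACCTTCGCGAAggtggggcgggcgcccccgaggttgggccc
DNAJB1: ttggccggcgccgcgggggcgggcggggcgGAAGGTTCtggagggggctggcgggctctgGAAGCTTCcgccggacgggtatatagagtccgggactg
DNAJA4: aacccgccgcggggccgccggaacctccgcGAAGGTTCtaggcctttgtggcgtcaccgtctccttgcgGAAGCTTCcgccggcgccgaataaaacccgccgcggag

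CHORDC1 held 3 overlapping copies, beginning 60 bases before its start site, and HSP90AA1 a single copy beginning 88 bases before. The copy of DNAJA1 began at base 4 of the transcript. HSP90AB1 and HSPD1 held 2 copies each, which share bases in HSPD1. A match describes the letters and is not a measured binding site.

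Arsenite raised chaperone transcripts in all 3 backgrounds, and the rises were led by the same few genes of several roles. In the authors' deposited table for knockout cells 19 of 47 members were called higher and 6 lower (adjusted p under 0.05), against 8.56% and 10.9% of all genes tested. Since 46 of the 47 members had a base mean of 100 or more in all 10 U2OS tables, the shares of genes at that level are also given, here 10.9% and 15%. The authors' deposited table for WT rescue called 23 higher and 0 lower, against 8.18% and 12.2% of all genes and 9.82% and 14.6% at that level. For NTF2-deletion rescue the authors' deposited table called 10 higher and 1 lower, against 2.43% and 6.14%, or 2.63% and 6.6% at that level. The members' share called higher was above both shares in each background. Treated WT rescue had the deepest libraries, and the part this plays in the counts of the 3 backgrounds was not tested. By the authors' deposited table for WT rescue, the 0 lower calls compare with 1667 of 13635 genes, and limma on the reads also called 0 members lower there. Without WT rescue library a, limma called 15 members in WT rescue.

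10 members were called higher in all 3 responses of the authors' deposited tables: DNAJA1, DNAJA4, DNAJB1, DNAJB4, DNAJB5, BAG3, HSPE1, HSP90AA1, CHORDC1 and AHSA1. Of all genes tested in the 3 tables, 1.69% were called so, and 1.9% of those at a base mean of 100 or more. For all 10 the ratio of mean normalised reads, arsenite over untreated, was largest in knockout, next in WT rescue and smallest in NTF2-deletion rescue. Of the 47 members 19 showed this order, against 20.6% of genes with a mean of 100 or more normalised reads. That share covers genes whatever their response, and the share among all genes called higher in all 3 responses was not worked out. DNAJB5 and AHSA1 lost the call in NTF2-deletion rescue when the authors' deposited p-values were adjusted over every gene, at adjusted p = 0.10 and 0.13. Another 7 members were called higher in knockout and WT rescue but not in NTF2-deletion rescue: DNAJB2, DNAJB6, HSPB1, HSPB8, HSPD1, TCP1 and FKBP4. Being called in some backgrounds and not in another is not a test of the difference, which is given further below. No arsenite response was called for 16 members, both heat shock factors among them. Of the 10 members called higher in all 3, 3 had the three-unit element in a promoter window and 5 the two-unit element. Of the 30 other members with windows, 3 and 8 did. DNAJB4, DNAJB5, BAG3, HSPE1 and AHSA1 had neither element in their windows, and a link between element and response was not tested. Sequence outside the windows was not searched. The HSPD1 stretch (chr2:197500038-197500090) lies just outside the HSPE1 window, which begins at chr2:197500129.

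**Figure D1:**
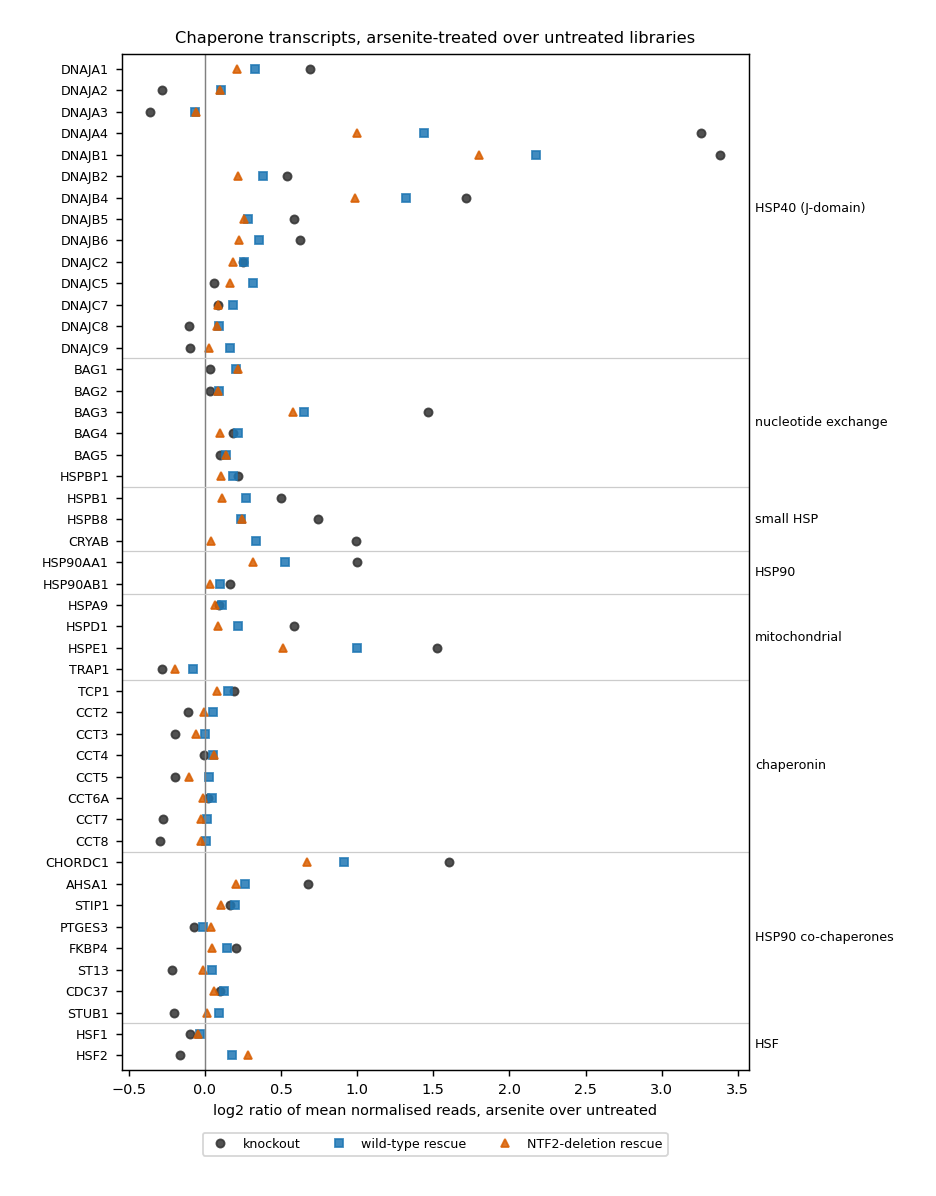
The log2 ratio of mean normalised reads, arsenite over untreated, is plotted for the 47 members, grouped by role, in knockout (circles), WT rescue (squares) and NTF2-deletion rescue (triangles). DNAJB1 and DNAJA4 stand furthest right in knockout, at 3.39 and 3.26, and the chaperonin subunits lie within 0.29 of 0 in all 3 backgrounds.

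Among HSP40 genes, 7 of 14 rose and 1 fell in knockout, 10 rose in WT rescue and 5 in NTF2-deletion rescue by the authors' deposited tables. DNAJB1 (ENSG00000132002), the main stress-induced partner of HSP70, stood at 1179 and 1295 normalised reads in untreated knockout and at 11743 and 14107 with arsenite. In WT rescue it went from 2230 and 2285 to 10128 and 10297, and in NTF2-deletion rescue from 2037 and 2153 to 7273 and 7313. Treated libraries were above untreated ones in every background, by 10.4, 4.52 and 3.48 times in the means. Knockout libraries started lowest and ended highest. In the authors' deposited tables the log2 fold changes of DNAJB1 were 3.34 (SE 0.08), 2.13 (SE 0.04) and 1.74 (SE 0.05). DNAJB1 has two-unit elements in 2 windows of different start sites.

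DNAJA4 (ENSG00000140403), another HSP40, rose from 157 and 175 normalised reads to 1501 and 1675 in knockout, 9.57 times. It rose from 350 and 358 to 944 and 975 in WT rescue, and from 309 and 378 to 668 and 701 in NTF2-deletion rescue. The treated libraries of DNAJA4 in the 3 backgrounds did not overlap, with knockout highest and NTF2-deletion rescue lowest. DNAJB4 (ENSG00000162616) differed from the first 2 in that its untreated level was highest in knockout, at 404 and 406 against 183 and 213 in WT rescue and 166 and 239 in NTF2-deletion rescue. With arsenite it reached 1295 and 1369 in knockout, 480 and 506 in WT rescue and 377 and 425 in NTF2-deletion rescue. DNAJB5 rose from 906 and 952 to 1365 and 1418 in knockout, 1.5 times. It rose 1.21 and 1.2 times in the rescues, where treated libraries held 1353 to 1403, within or just below the treated knockout range.

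DNAJA1 (ENSG00000086061), a farnesylated HSP40, rose 1.61 times in knockout, from 3231 and 3698 to 5467 and 5697 normalised reads. Its rises in WT rescue (1.26 times) and NTF2-deletion rescue (1.15 times) were smaller, from untreated levels of 5031 to 5444. DNAJB6, which restrains protein aggregation, rose 1.54 times in knockout and 1.28 times in WT rescue, and DNAJB2 rose 1.45 and 1.3 times. In the NTF2-deletion rescue the authors' deposited table called neither, at log2 0.21 (SE 0.07) for DNAJB6 and 0.19 (SE 0.09) for DNAJB2. DNAJA3, the mitochondrial HSP40, was called lower in knockout, where its libraries went from 959 and 1104 to 769 and 839. That call was lost with the adjustment over every gene, at adjusted p = 0.051.

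**Figure D2:**
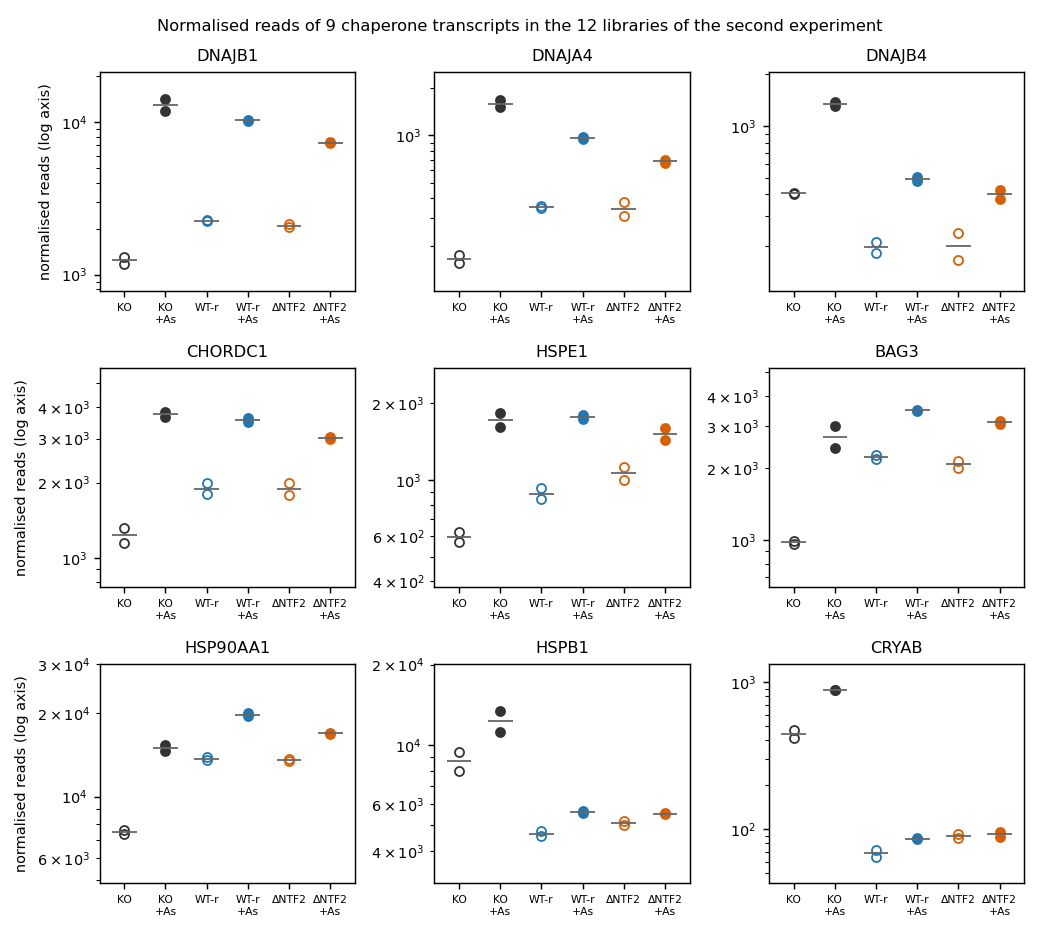
Normalised reads, on log axes of differing range, are plotted for 9 members in the 12 libraries of the second experiment, 1 point per library with a line at the mean of the 2. Open points are untreated and filled points arsenite-treated libraries of knockout (KO), WT rescue (WT-r) and NTF2-deletion rescue (ΔNTF2), and CRYAB falls from 414 to 474 in untreated knockout to under 100 in every rescue library.

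Of the nucleotide exchange factors, BAG3 (ENSG00000151929), which links HSP70 to autophagy of aggregates, was called higher in all 3 backgrounds. It rose from 962 and 997 normalised reads to 2412 and 2991 in knockout, 2.76 times. Untreated rescue libraries already held 2002 to 2255, and with arsenite they held 3469 and 3483 (WT) or 3048 and 3150 (NTF2 deletion). Every treated rescue library was above both treated knockout libraries. BAG1 was called higher in WT rescue at log2 0.18 (SE 0.07) in the authors' deposited table, and limma on the reads did not call it (adjusted p = 0.060). BAG2, BAG4, BAG5 and HSPBP1 were called in no arsenite response.

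All 3 small heat shock protein genes rose in knockout, 2 in WT rescue and 0 in NTF2-deletion rescue by the authors' deposited tables. HSPB1 (ENSG00000106211), or HSP27, stood at 7991 and 9385 normalised reads in untreated knockout and 11134 and 13427 with arsenite. In WT rescue it went from 4557 and 4726 to 5545 and 5632. HSPB8, which works with BAG3, rose 1.68 times in knockout and 1.18 times in WT rescue. In NTF2-deletion rescue HSPB8 went from 1106 and 1291 to 1392 and 1453, a change of 0.22 (SE 0.08) in log2 that the authors' deposited table did not call. CRYAB (ENSG00000109846), or alpha-B-crystallin, rose in knockout, from 414 and 474 to 884 and 885, 1.99 times. In the rescues it stayed under 100 in every library.

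HSP90AA1 (ENSG00000080824), the inducible HSP90, rose 2.00 times in knockout, from 7372 and 7593 normalised reads to 14589 and 15320. It rose 1.44 times in WT rescue, from 13540 and 13851 to 19452 and 20008, and 1.25 times in NTF2-deletion rescue, from 13453 and 13667 to 16841 and 16979. The untreated rescue libraries lay just below the treated knockout ones. HSP90AB1, the constitutive HSP90, changed little: it was called only in knockout, at log2 0.18 (SE 0.05) in the authors' deposited table, and stood at 0.08 (SE 0.03) and 0.03 (SE 0.03) in the rescues. The three-unit element lies in the window of a single start site of HSP90AB1, and likewise of HSP90AA1. The other windows of both genes lack it.

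In mitochondria, HSPE1 (ENSG00000115541), the co-chaperonin of HSPD1, rose from 572 and 624 normalised reads to 1609 and 1833 in knockout, 2.88 times. It rose 1.99 times in WT rescue, from 841 and 928 to 1733 and 1795, and 1.42 times in NTF2-deletion rescue, from 998 and 1123 to 1431 and 1592. Its partner HSPD1 rose 1.5 times in knockout and 1.16 times in WT rescue. In NTF2-deletion rescue HSPD1 stood at log2 0.08 (SE 0.03) and was not called in the authors' deposited table. TRAP1, the mitochondrial HSP90, was called lower in knockout and in NTF2-deletion rescue, at log2 -0.26 (SE 0.09) and -0.19 (SE 0.05) in the authors' deposited tables. HSPA9, the mitochondrial HSP70, was called only in WT rescue, at 0.10 (SE 0.04) in the authors' deposited table, and limma did not call it (adjusted p = 0.072).

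Chaperonin subunits moved little and partly downward. CCT3, CCT5, CCT7 and CCT8 were called lower with arsenite in knockout, at log2 -0.18 to -0.28, and TCP1 higher at 0.20 (SE 0.07), in the authors' deposited table. CCT8 went from 6747 and 7024 normalised reads to 5569 and 5674 there, with no overlap, and its treated and untreated libraries overlapped in both rescues. The calls of CCT3 and CCT5 were lost with the adjustment over every gene, at adjusted p = 0.073 and 0.089. In WT rescue the authors' deposited table called TCP1 alone, at 0.13 (SE 0.04), and in NTF2-deletion rescue it called 0 of 8 subunits.

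Among HSP90 co-chaperones, CHORDC1 (ENSG00000110172), whose promoter carries 3 overlapping copies of the three-unit element, rose 3.03 times in knockout, from 1152 and 1317 normalised reads to 3658 and 3833. It rose 1.89 times in WT rescue, from 1793 and 1987 to 3492 and 3638, and 1.59 times in NTF2-deletion rescue, from 1782 and 1999 to 2975 and 3045. AHSA1, which stimulates the ATPase of HSP90, rose 1.6, 1.2 and 1.15 times. FKBP4 was called higher in knockout and WT rescue and STIP1 in WT rescue, at log2 0.13 to 0.21 in the authors' deposited tables. PTGES3, ST13, CDC37 and STUB1 were called in no response. HSF1 and HSF2, the factors themselves, also were not called: HSF1 stood at -0.08 (SE 0.09), -0.05 (SE 0.04) and -0.04 (SE 0.05) in the authors' deposited tables.

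Of the lists of related genes, cytosolic HSP70 and HSP110 had 7 of 8 tested genes called higher in knockout, 7 of 8 in WT rescue and 5 of 7 in NTF2-deletion rescue by the authors' deposited tables. Prefoldin, which hands clients to the chaperonin, had 0 of 6 called in each. Further J-domain genes, small heat shock proteins and HSP90 partners had 1 of 31 called higher and 6 lower in knockout, 2 of 30 and 9 in WT rescue, and 0 of 28 and 1 in NTF2-deletion rescue, again by the authors' deposited tables. Its share called higher was below that of all genes in each background, and no list was tested against another.

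The differences between the responses were tested as the difference of 2 deposited fold changes over their combined standard error, adjusted over all genes whose base mean reached 10. The response in WT rescue was smaller than in knockout for 12 members and larger for CCT8. Of all genes 4.51% differed, 2.68% downward and 1.82% upward. The NTF2-deletion response was smaller than in knockout for 13 members and larger for CCT8. Of all genes 7.12% differed, 3.08% downward and 4.04% upward. Both differences share the knockout libraries and are given side by side. For DNAJA4 they were -1.78 (SE 0.16) and -2.32 (SE 0.17), and for DNAJB1 -1.21 (SE 0.09) and -1.60 (SE 0.10). They were -0.71 (SE 0.10) and -0.96 (SE 0.11) for CHORDC1, -0.81 (SE 0.11) and -0.89 (SE 0.12) for BAG3, and -0.50 (SE 0.07) and -0.69 (SE 0.07) for HSP90AA1. The other genes below knockout in both were DNAJA1, DNAJB4, HSPB8, CRYAB, HSPD1, HSPE1 and AHSA1, and DNAJB6 was so in NTF2-deletion rescue.

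The deposited fold changes are shrunk toward 0 to a different degree in each table. Shrinkage was set by a width of 0.64 in log2 in knockout, 0.37 in WT rescue and 0.28 in NTF2-deletion rescue. A narrower width pulls fold changes of equal precision further toward 0, which makes responses in the rescues look smaller. With the shrinkage undone, DNAJB4 and CRYAB lost the call between WT rescue and knockout, at adjusted p = 0.186 and 0.192. Limma on the normalised reads called 21 members there, 13 smaller and 8 larger in WT rescue, and 21 in NTF2-deletion rescue, against 10.2% and 14.1% of genes. Without knockout library a it called 22 for NTF2-deletion rescue, 6 larger and 16 smaller. Without arsenite-treated knockout library a it called 22 for WT rescue, 11 larger and 11 smaller, so without that library smaller responses were no more frequent than larger ones. For DNAJA1, DNAJA4, DNAJB1, DNAJB6, BAG3, HSPB8, HSP90AA1, HSPD1, HSPE1, CHORDC1 and AHSA1 the smaller ratio in the rescues came with a higher untreated level. DNAJB4, HSPB1 and CRYAB were lower in the rescues both untreated and treated.

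With arsenite in both, 36 members were higher and 5 lower in WT rescue than in knockout by the same test. Of all genes 45.4% differed, 26.1% higher and 19.3% lower. In this test the untreated knockout libraries enter both tables. The lower ones included DNAJA4 at -0.55 (SE 0.19) and DNAJB1 at -0.24 (SE 0.10), and HSP90AA1 was higher at 0.46 (SE 0.07). In NTF2-deletion rescue 34 were higher and 6 lower than in treated knockout, with DNAJA4 at -1.07 (SE 0.21) and DNAJB1 at -0.75 (SE 0.11). Of all genes 43.4% differed there, 24.3% higher and 19.2% lower. HSPE1 did not pass in either, at 0.12 (SE 0.15) and -0.13 (SE 0.15). DNAJA4 and DNAJB1, with the steepest responses in knockout, therefore had treated levels in the rescues below those of treated knockout. The members' median log2 ratio of mean normalised reads, treated rescue over treated knockout, was 0.71 (WT) and 0.63 (NTF2 deletion). It was 0.19 and 0.17 for genes with a mean of 100 or more normalised reads, a shift the counts are to be read against.

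Whether the NTF2-like domain changed the arsenite response was asked by comparing the 2 rescues. The response was larger in WT than in NTF2-deletion rescue for 4 members and smaller for 0. Of all genes 0.328% differed, 0.101% upward and 0.227% downward. HSPE1 differed by 0.49 (SE 0.11), DNAJB1 by 0.40 (SE 0.06), HSP90AA1 by 0.19 (SE 0.05) and DNAJA4 by 0.55 (SE 0.14). With the shrinkage undone DNAJA4 lost the call (adjusted p = 0.91). Limma on the reads called 0 of 47 members, and 3 genes in all (0.018%), with adjusted p = 0.124 for HSPE1, 0.165 for DNAJB1, 0.42 for HSP90AA1 and 0.483 for DNAJA4. At an unadjusted p under 0.05 the table test took 9 members, against 4.04% of genes, and the 4 calls depend on the test.

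With arsenite in both rescues, DNAJB1 was higher with WT G3BP1 by 0.51 (SE 0.09) on the log2 scale, the only member to pass, against 0.0785% of genes. Its treated libraries held 10128 and 10297 normalised reads with WT and 7273 and 7313 with the NTF2 deletion, 1.4 times. Limma on the reads called 4 members, DNAJB1, DNAJA4, HSP90AA1 and DNAJC2, all higher with WT, against 1.03% of genes. The table test of the treated rescues also has the untreated knockout libraries in both tables. Its combined standard error is then too large, so it could have missed members. HSP90AA1 held 19452 and 20008 against 16841 and 16979, and DNAJA4 944 and 975 against 668 and 701. G3BP1 transgene reads were lower in the treated WT rescue than in the treated NTF2-deletion rescue, at 784731 and 803026 against 955601 and 977487 normalised reads, and the part this plays was not tested. Untreated, no member passed between the rescues in the table test or in limma, against 0.0185% of genes, and 0 of 47 had an unadjusted p under 0.05 in the table test, against 0.716% of genes. Both tables hold the untreated knockout libraries, which makes the combined standard error too large, so these counts of 0 from the table test say little. Limma called 0.973% of genes there. By library ranges, 21 members were lower in WT rescue with no overlap and 5 higher, against 23.9% and 23.4% of genes with a mean of 100 or more normalised reads. The 47 untreated differences ran from -0.37 for CRYAB to 0.19 for HSF2, and the widest 95% intervals reached -0.97 and 0.69. These intervals rest on the same too large standard error, so they are too wide. Differences could have been missed, but their size is overstated by these limits.

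Without arsenite, most of the set stood higher in knockout cells transfected with either transgene than in untransfected ones. In WT rescue 41 of 47 members were called higher and 3 lower than in knockout in the authors' deposited table, against 23% and 19.1% of genes tested, or 41% and 24.2% of those whose base mean reached 100. The authors' deposited table for NTF2-deletion rescue called 42 higher and 3 lower, against 22.8% and 18.7%, or 40.5% and 24% at that level. DNAJB4, HSPB1 and CRYAB were the 3 called lower in each table. The 2 tables share the untransfected knockout libraries. The median fold change of all genes whose base mean reached 100 was itself 0.18 and 0.17 in these tables, so changes are to be read against that shift, and the members' medians were 0.77 and 0.84.

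All 8 chaperonin subunits were called higher in both rescues, at log2 0.56 to 0.97 in the authors' deposited tables. CCT8 stood at 6747 and 7024 normalised reads in knockout, 12458 and 12527 in WT rescue and 12972 and 13567 in NTF2-deletion rescue. All 6 nucleotide exchange factors and all 4 mitochondrial chaperones were also called higher in both, with HSPD1 at 10435 and 10443 in knockout against 21878 to 23704 in the rescue libraries. DNAJC2, a ribosome-bound HSP40, rose most of the HSP40 genes, 2.76 and 2.47 times, from 749 and 792 to 2096 and 2162 in WT rescue and 1838 and 1969 in NTF2-deletion rescue. CDC37, which brings kinases to HSP90, rose 2.39 and 2.36 times, from 1151 and 1279 to between 2842 and 2919. DNAJA3 rose 2.31 and 2.32 times, from 959 and 1104 to between 2341 and 2438, and BAG3 2.26 and 2.12 times. BAG1 rose 2.19 and 2.18 times and TRAP1 1.98 and 2.17 times. HSP90AA1 rose 1.83 and 1.81 times and HSP90AB1 1.51 and 1.61 times. HSF1 rose 1.63 and 1.74 times, and HSF2 was called in neither, at 0.04 (SE 0.18) and -0.15 (SE 0.18) in the authors' deposited tables.

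CRYAB was lowest relative to knockout, at 64.9 and 71.7 normalised reads in WT rescue and 87.1 and 92.0 in NTF2-deletion rescue against 414 and 474 in knockout. That is 6.49 and 4.96 times lower. HSPB1 fell 1.87 and 1.71 times, to 4557 and 4726 in WT rescue and 5009 and 5165 in NTF2-deletion rescue. HSPB8, the remaining small heat shock protein, went the other way and rose 1.96 and 2.10 times. DNAJB2 was called in neither comparison, at -0.13 (SE 0.10) and -0.17 (SE 0.10) in the authors' deposited tables. The smallest called rises were those of ST13, DNAJC5 and DNAJB5 in WT rescue, at 0.21 (SE 0.08), 0.25 (SE 0.11) and 0.31 (SE 0.10), and of STUB1, ST13 and DNAJC5 in NTF2-deletion rescue, at 0.25 (SE 0.10), 0.30 (SE 0.09) and 0.32 (SE 0.10), in the authors' deposited tables. When limma scaled the reads by library totals, ST13 in WT rescue and STUB1 in NTF2-deletion rescue changed sign, at -0.028 and -0.013, from 0.21 and 0.25 in the authors' deposited tables.

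**Figure D3:**
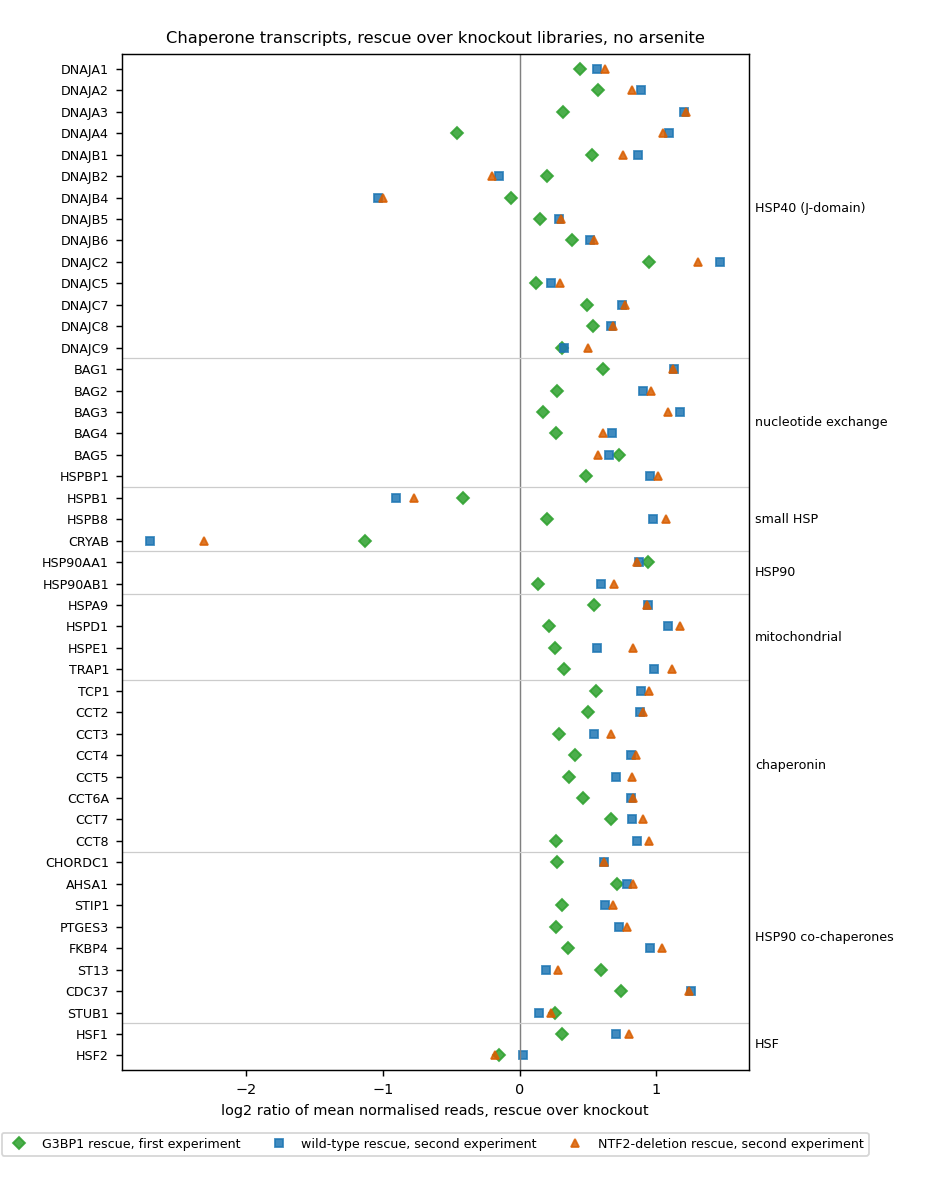
The log2 ratio of mean normalised reads, rescue over untransfected knockout without arsenite, is plotted for the 47 members by role, for the first experiment (diamonds) and for WT (squares) and NTF2-deletion rescue (triangles) of the second. Most points lie right of 0, and CRYAB lies furthest left in all 3, at -1.13, -2.70 and -2.31.

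Against untreated knockout, the treated rescues held both changes at once. The authors' deposited tables called 44 members higher and 2 lower in treated WT rescue, against 25.1% and 19.8% of genes, or 44.9% and 25.4% at a base mean of 100 or more. They called 42 and 2 in treated NTF2-deletion rescue, against 23.3% and 19.6%, or 42.2% and 25.5% at that level. DNAJB1 was highest in both, at log2 3.10 (SE 0.06) and 2.59 (SE 0.07) in the authors' deposited tables, and CRYAB lowest, at -2.25 (SE 0.19) and -2.17 (SE 0.20). DNAJA4 came second at 2.56 (SE 0.14) and 2.05 (SE 0.16), and BAG3 next at 1.88 (SE 0.07) and 1.69 (SE 0.08), in the authors' deposited tables. DNAJC2, HSPE1 and CHORDC1 stood at 1.78 (SE 0.08), 1.62 (SE 0.10) and 1.59 (SE 0.08) in treated WT rescue in the authors' deposited table. HSPB1, the other gene below knockout, stood at -0.57 (SE 0.07) and -0.62 (SE 0.07) in the authors' deposited tables. The smallest called rises were those of DNAJB2 at 0.29 (SE 0.09), STUB1 at 0.29 (SE 0.09), ST13 at 0.30 (SE 0.08) and DNAJB4 at 0.34 (SE 0.14) in treated WT rescue, and STUB1 at 0.28 (SE 0.10) and ST13 at 0.31 (SE 0.08) in treated NTF2-deletion rescue, in the authors' deposited tables. With the reads scaled by library totals, limma gave DNAJB2 -0.0021 in treated WT rescue and STUB1 -0.0047 in treated NTF2-deletion rescue, against 0.29 and 0.28 in the authors' deposited tables.

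In the first experiment the G3BP1 rescue again stood above knockout for most members. There 41 members were called lower and 3 higher in knockout than in rescue by the authors' deposited table, against 21.5% and 16.1% of genes tested, or 32.7% and 23.4% of those whose base mean reached 100. By name, 39 members were both higher in WT rescue of the second experiment and lower in knockout here, against 14.4% of all genes tested in each table and 25.9% at that level, and HSPB1 and CRYAB went the other way in both experiments. These experiments have separate libraries. Their rescues differ in G3BP1 RNA by the authors' deposited tables. WT rescue stood at log2 7.31 (SE 0.04) against untreated knockout in the second experiment, and knockout at -0.69 (SE 0.04) against rescue here. HSP90AA1 held 29633 and 30753 normalised reads in knockout and 56185 and 59544 in rescue, DNAJC2 2474 and 2720 against 4873 and 5134, and CRYAB 1571 and 1663 against 680 and 798. CDC37, AHSA1, BAG5 and CCT7 were 1.67, 1.64, 1.65 and 1.59 times lower in knockout than in rescue. HSPA9, HSF1 and TRAP1 were lower at -0.55 (SE 0.04), -0.32 (SE 0.05) and -0.34 (SE 0.05), and HSF2 was not called, at 0.14 (SE 0.10), in the authors' deposited table. The smallest called falls were those of HSP90AB1, DNAJB5 and BAG3, at -0.14 (SE 0.04), -0.16 (SE 0.06) and -0.19 (SE 0.05) in the authors' deposited table. DNAJA4 was higher in knockout here, at 910 and 931 against 668 and 671, and so opposite in sign to the second experiment, where it was 2.13 times higher in WT rescue.

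Knockout against wild type was mixed: 16 members were called higher and 21 lower in the authors' deposited table, against 18.4% and 19.4% of genes tested, or 27.8% and 30.4% of those whose base mean reached 100. HSP90AA1 was lower, with 56274 and 57337 normalised reads in wild type against 29633 and 30753 in knockout, 1.88 times. Rescue libraries overlapped wild type for HSP90AA1, and the authors' deposited table gave -0.05 (SE 0.04) between them. BAG5 and CCT7 were also lower, by 1.98 and 1.65 times, with BAG5 at 2023 and 2151 in wild type and 1005 and 1106 in knockout. AHSA1 was 1.47 times lower, DNAJB2 1.46, DNAJB1 1.32 and DNAJC2 1.68 times, and 9 of 14 HSP40 genes were called lower in the authors' deposited table.

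The 3 small heat shock protein genes were all among the higher ones in the authors' deposited table. CRYAB stood at 524 and 543 normalised reads in wild type and 1571 and 1663 in knockout, 3.03 times, and HSPB1 was 1.5 times higher. DNAJA4 was 2.68 times higher, from 329 and 358 to 910 and 931. HSPD1 and HSPE1 were 1.68 and 1.69 times higher, and BAG3 1.51 times. Smaller changes were those of HSPB8 at 0.46 (SE 0.07), HSF2 at 0.44 (SE 0.11), TRAP1 at 0.31 (SE 0.06), HSP90AB1 at 0.28 (SE 0.04) and HSPA9 at -0.23 (SE 0.05), and HSF1 was not called, at 0.07 (SE 0.05), in the authors' deposited table. HSPD1, HSPE1 and BAG3 were higher still in rescue, with HSPE1 at 1669 and 1793 in wild type, 2849 and 3009 in knockout and 3370 and 3633 in rescue.

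Most members stood above the wild-type level in rescue. Of the 47, 39 members were called lower and 3 higher in wild type than in rescue by the authors' deposited table, against 20.4% and 15.2% of genes tested, or 30.7% and 23% of those whose base mean reached 100. HSPE1 was 2.02 times, HSPD1 1.95, DNAJA4 1.95, BAG3 1.71, HSPB8 1.6 and TRAP1 1.55 times higher in rescue than in wild type. HSP90AB1, HSPA9, HSF1 and HSF2 were lower in wild type, at -0.44 (SE 0.04), -0.33 (SE 0.04), -0.40 (SE 0.05) and -0.31 (SE 0.10) in the authors' deposited table. DNAJB1, DNAJC7 and DNAJA1 had the smallest called falls, at -0.15 (SE 0.05), -0.16 (SE 0.06) and -0.17 (SE 0.05) in the authors' deposited table. DNAJB2, DNAJC5 and BAG5 were the 3 called higher in wild type, at log2 0.32 (SE 0.06), 0.21 (SE 0.06) and 0.23 (SE 0.08) in the authors' deposited table. The rescue of the first experiment held 20087 and 20375 normalised reads of G3BP1, against 18087 and 19023 in wild type.

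In RIP-seq, members were more often high than low in the FLAG-G3BP1 immunoprecipitate. The authors' deposited table tested 45 members and called 32 higher and 4 lower than input, against 24.7% and 31.4% of genes tested, or 44.4% and 38.6% of genes whose base mean reached 100. DNAJA4 was listed at 0 in these cells and CRYAB had no adjusted p. Per-library reads were not worked out for this table, whose values are given with the authors' standard errors. The table's median fold change over genes whose base mean reached 100 was 0.12.

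All 8 chaperonin subunits were called higher in the immunoprecipitate, from CCT6A at log2 0.56 (SE 0.13) to CCT5 at 1.75 (SE 0.18) in the authors' deposited table. CCT7, CCT4 and TCP1 followed at 1.47 (SE 0.17), 1.43 (SE 0.17) and 1.31 (SE 0.17) in the authors' deposited table. Of the HSP40 genes 11 of 13 tested were called higher, with DNAJC9, a histone chaperone, at 1.26 (SE 0.13) and DNAJA2 at 1.19 (SE 0.10) in the authors' deposited table. DNAJC5, the synaptic vesicle HSP40, was lower, at -1.13 (SE 0.11) in the authors' deposited table. The exchange factor genes BAG5 and BAG4 were lower too, at -0.64 (SE 0.14) and -0.33 (SE 0.15) in the authors' deposited table. Of the mitochondrial chaperones TRAP1 was called at 1.08 (SE 0.16) in the authors' deposited table, and HSPA9 and HSPD1 were not, at -0.14 (SE 0.16) and 0.25 (SE 0.14). Of the genes grouped as HSP90 co-chaperones, ST13 stood at 1.70 (SE 0.12) and the ubiquitin ligase STUB1 at 1.56 (SE 0.11) in the authors' deposited table. STIP1 of the same group stood at -0.50 (SE 0.10) there.

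Of the 10 members called higher in all 3 arsenite responses, DNAJA4 was at 0 in these cells, and DNAJA1, DNAJB5 and AHSA1 stood at 1.02 (SE 0.14), 1.18 (SE 0.28) and 0.85 (SE 0.11) in the authors' deposited table. DNAJB4 was not called, at -0.16 (SE 0.19) in the authors' deposited table. DNAJB1 stood at 0.80 (SE 0.12), CHORDC1 at 0.28 (SE 0.10), BAG3 at -0.19 (SE 0.16) and HSPE1 at 0.27 (SE 0.18) in the authors' deposited table, and the latter 2 were not called. Neither HSP90 gene was called, with HSP90AA1 at 0.35 (SE 0.16) and HSP90AB1 at 0.25 (SE 0.16) in the authors' deposited table. The small heat shock protein HSPB1 was called at 1.02 (SE 0.24) with a base mean of 121, and HSPB8, with a base mean of 5.6, was not, in the authors' deposited table. HSF1 and HSF2 were called higher, at 0.78 (SE 0.12) and 0.97 (SE 0.13) in the authors' deposited table. When each Wald statistic was centred and divided by the spread over genes whose base mean reached 100, which was 9.34, 0 members were called, but only 2 of 22856 genes (0.00875%) passed, so that count says nothing particular about the members.

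**Figure D4:**
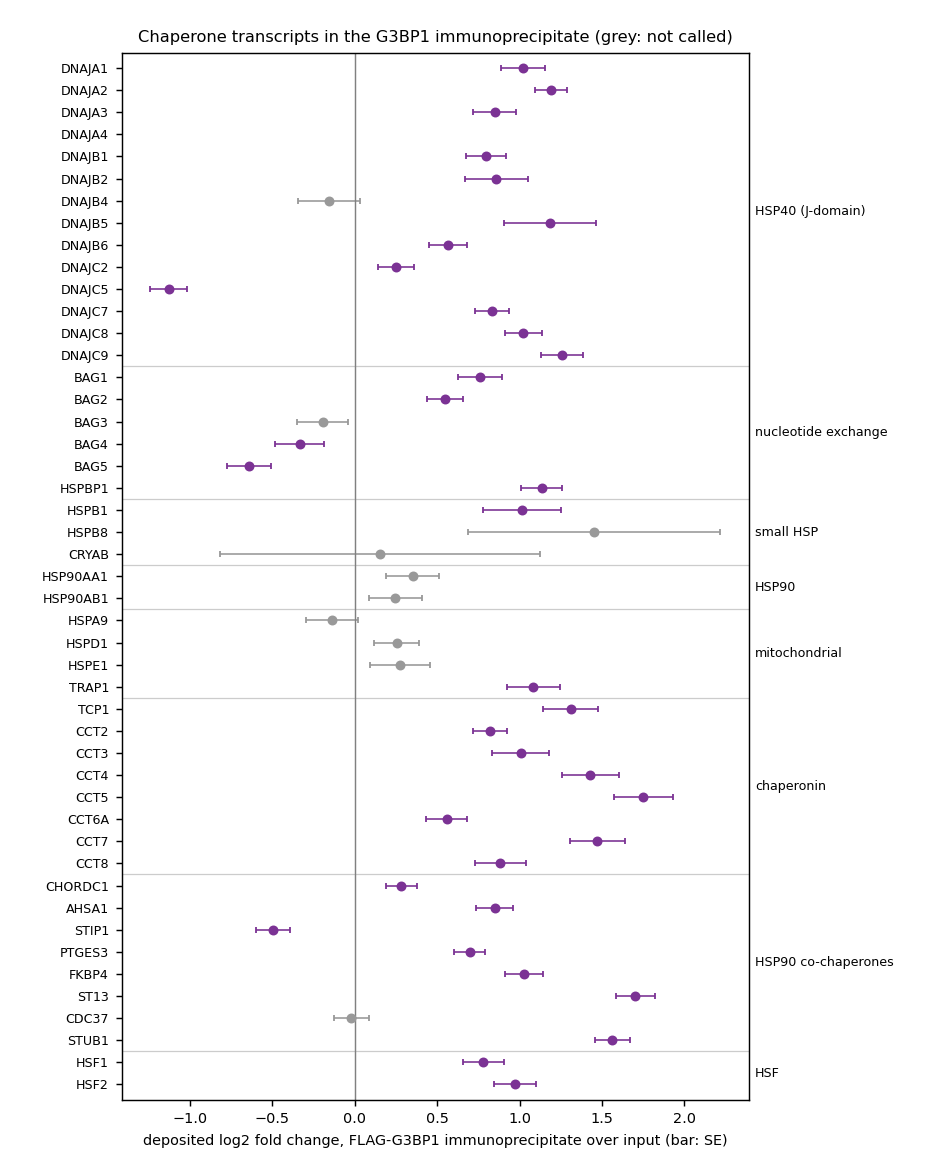
The deposited log2 fold change, FLAG-G3BP1 immunoprecipitate over input, is plotted for the members by role, with bars for the authors' standard error. Grey points did not pass an adjusted p of 0.05, DNAJA4 is not drawn, and the 8 chaperonin subunits all lie right of 0, up to 1.75 for CCT5.

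Several of these genes have processed pseudogenes or close relatives, among them HSP90AA1, HSP90AB1, HSPD1, HSPE1 and chaperonin subunits, and the counting could have split their reads. HSPD1 and HSPE1 lie head to head, and whether counting used the strand is not given in the sources used here.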

How the data were processed

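The 11 tables hold DESeq2 comparisons of 2 groups each, made by the authors from reads aligned with STAR, per the submitters' processing notes. The genome build, annotation, counting and use of strand are not given in the sources used here. The libraries are poly-A selected and strand-preserving, per the labels' protocols. The base mean the authors deposited is a signal: reads divided by size factors and averaged over the libraries of the 2 groups. The deposited log2 fold changes and standard errors are shrunk toward 0, which was checked from the values. The deposited Wald score and the authors' p-values, raw and adjusted, stand beside them. The 4 counting summary lines of each table were removed.

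Members were called at the authors' adjusted p under 0.05. Differences between tables were tested as a z on the difference of fold changes, with Benjamini-Hochberg adjustment over genes whose base mean reached 10 in both tables. Reads per library of the 18 U2OS libraries were worked out from the base means, which gave whole numbers for all 61541 genes (largest relative distance 7.12e-15, tolerance 2e-14). RIP-seq reads were not worked out. These reads, divided by median-of-ratios size factors, were also fitted with limma 3.58.1 in R 4.3.3 on log2(normalised reads + 1), genes with a mean of at least 10. This fit, its scaling by library totals and its repeats without each library were chosen after seeing the data. Other steps used Python 3.11.15, pandas 2.3.3 and scipy 1.17.1. The steps were tested on simulated data. The mean squared difference between the 2 libraries of a group was 1.47 to 2.04 times that of sampling. Each library was counted as 1 sample, but such a spread does not show that they came from separate cultures. Values are given for up to 6 members each with the highest and lowest called fold change per comparison (base mean 100 or more), with a few small ones given by range or count. They are also given for members whose responses differ, those called in all 3 arsenite responses, and HSP90, small heat shock protein, mitochondrial and HSF members, with differences between treated groups mainly by count. Others, among them DNAJA2 and DNAJC9, were named after their values were seen. The members and all lists were chosen with earlier results of these data known.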

Additional observations from a re-analysis of the deposited data

Results flagged for a closer look

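The arsenite response differed between backgrounds for 14 members, by the test on the difference of the deposited log2 fold changes. All values are differences in log2 and none is weighed for a cause. For HSP40 genes, WT rescue minus knockout was -0.38 for DNAJA1, -1.78 for DNAJA4, -1.21 for DNAJB1 and -0.51 for DNAJB4. NTF2-deletion rescue minus knockout was -0.49 for DNAJA1, -2.32 for DNAJA4, -1.60 for DNAJB1, -1.01 for DNAJB4 and -0.42 for DNAJB6.

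BAG3, the exchange factor, differed by -0.81 in WT rescue and -0.89 in NTF2-deletion rescue. The small heat shock protein genes HSPB8 and CRYAB differed by -0.52 and -0.75 in WT rescue and by -0.51 and -0.95 in NTF2-deletion rescue. With the shrinkage undone, CRYAB, and DNAJB4 above, lost the call in WT rescue minus knockout. HSP90AA1 differed by -0.50 and -0.69, HSPD1 by -0.40 and -0.51, and HSPE1 by -0.55 and -1.04. The co-chaperone genes CHORDC1 and AHSA1 differed by -0.71 and -0.43 in WT rescue and by -0.96 and -0.48 in NTF2-deletion rescue. CCT8 went the other way, at 0.27 and 0.25.

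Between the 2 rescues, WT minus NTF2 deletion was 0.55 for DNAJA4, 0.40 for DNAJB1, 0.19 for HSP90AA1 and 0.49 for HSPE1. Limma on the reads called 0 of these 4, and DNAJA4 lost the call with the shrinkage undone (adjusted p = 0.91).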

How the results depend on the processing

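Of 96 alternative settings run on 18 counts of members, leave-one-out apart, 7 moved a count by over 1.5 times. In RIP-seq 0 of 36 calls remained with Wald statistics divided by their robust spread, which 2 genes passed in all. For WT rescue minus knockout, limma called 21 members (13 from the deposited tables). For the responses of the 2 rescues, 2 of 4 calls passed at an adjusted p under 0.01, and limma called 0, also 0 when scaled by library totals. With arsenite in both rescues, limma called 4 and, scaled by totals, 5 (1 from the deposited tables). Limma without each library in turn called 15 to 19 members for arsenite in WT rescue (23 from the deposited table), 12 to 22 for WT rescue minus knockout, 18 to 22 for NTF2-deletion rescue minus knockout (14 from the deposited tables) and 0 to 0 for the 2 rescues' responses. There the lone library of a group is assumed to vary like the others, and the cause of each move was not tested. RIP-seq had no such repeat because its libraries were not worked out.

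Of 4641 settings on single members, 4353 kept direction and side, 282 lost the threshold and 6 changed sign, all under limma scaled by library totals. These were ST13 in WT rescue against knockout (-0.028), STUB1 in NTF2-deletion rescue against knockout (-0.013) and in its treated counterpart (-0.0047), DNAJB2 in treated WT rescue against untreated knockout (-0.0021), and, with arsenite in both, DNAJA1 in WT rescue minus knockout (-0.022) and HSP90AA1 in NTF2-deletion rescue minus knockout (-0.065).

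No paired analysis was possible because the deposited tables carry no replicate numbers for their libraries. Precision is limited by 2 libraries a group.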
